A study of Mus musculus with 11 samples.

Results

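Chromatin accessibility of haematopoietic stem cells (HSCs) from old mice, sorted for high autophagy, was compared with that of HSCs from young mice at every peak of an ATAC-seq experiment. ATAC-seq uses a transposase that inserts sequencing adapters into open DNA, so that the number of reads in a peak reflects how accessible the region was. All 94410 peaks of the authors' deposited table of old AThi against young HSCs were taken, out of 94410 peaks in the series. The comparison rests on 3 old AThi libraries and 5 young libraries, of 11 libraries in all, and the other 3 were the ATlo fractions of the same old samples. All groups were HSCs purified from the bone marrow of Gfplc3/Gfplc3 mice at steady state. This allele expresses LC3, a protein of the autophagosome membrane, fused to GFP. Old HSCs were divided by their GFP signal into AThi (GFPlo) and ATlo (GFPhi) cells, while young HSCs were not divided, so age and sorting differ together between the groups compared. Ages in numbers, sex, strain background and the number of animals behind each library are not given in the sources used here, and p-values therefore measure the spread between these libraries. In a bulk assay, a larger share of cells with an open peak cannot be told apart from wider opening in each cell.

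HSCs sit at the top of blood formation and stay mostly quiescent. Autophagy encloses cytoplasm and organelles in membranes and delivers them to the lysosome, and GFP-LC3 is degraded on the way, so cells with a high flux lose GFP. HSCs of old animals are known for a bias towards myeloid and platelet fates and for altered chromatin. Open chromatin lies mainly at promoters, which are broadly open at genes needed by every cell, and at distal elements, which differ more between cell states. Promoters of developmental regulators are often rich in CpG dinucleotides and are kept inactive in blood cells by Polycomb complexes.

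Promoter sequences of members of the groups described below are printed here. Each is the 150 bases immediately before the start site, written 5′ to 3′ on the strand of the gene, from the RefSeq promoter table of GRCm38.p6. They were chosen as examples after their values were seen and are not typical of called promoters. The ETS motif was in 10.1% of lower promoters, and higher promoters had a median of 19 CpG in a window of 300 bases. The first 4 belong to genes of protein folding, DNA repair, splicing and translation whose promoter peak was called lower in old AThi HSCs. Capitals mark the ETS motif CCGGAAGT or its reverse complement, the core bound by ETS family factors.
Cct8: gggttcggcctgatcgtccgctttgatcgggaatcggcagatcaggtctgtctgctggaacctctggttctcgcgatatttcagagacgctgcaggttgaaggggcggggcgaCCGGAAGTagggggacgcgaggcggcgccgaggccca
Palb2: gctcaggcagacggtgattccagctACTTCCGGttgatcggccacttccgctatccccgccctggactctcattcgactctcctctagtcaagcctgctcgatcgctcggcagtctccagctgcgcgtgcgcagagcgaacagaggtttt
Sf3a3: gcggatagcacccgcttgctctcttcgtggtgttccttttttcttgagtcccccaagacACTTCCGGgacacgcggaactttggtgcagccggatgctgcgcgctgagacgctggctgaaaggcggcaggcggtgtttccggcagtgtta
Rpl37: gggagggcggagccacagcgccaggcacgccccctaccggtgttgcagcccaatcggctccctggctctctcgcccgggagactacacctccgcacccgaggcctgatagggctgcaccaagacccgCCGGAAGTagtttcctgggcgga
A pair of histone gene promoters, also called lower, each hold 3 copies of the CCAAT box, which is bound by the factor NF-Y, and capitals mark ATTGG or its reverse complement.
H2ac15: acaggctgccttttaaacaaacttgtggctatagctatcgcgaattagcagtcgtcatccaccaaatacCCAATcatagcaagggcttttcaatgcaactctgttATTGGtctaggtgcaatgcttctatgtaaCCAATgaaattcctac
H2bc14: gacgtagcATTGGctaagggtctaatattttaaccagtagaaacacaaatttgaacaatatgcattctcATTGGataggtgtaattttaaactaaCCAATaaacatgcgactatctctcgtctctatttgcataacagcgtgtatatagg
The last 3 belong to a neuronal transcription factor, a Wnt ligand and a potassium channel whose promoter peak was called higher. Capitals mark every CpG.
Pou4f1: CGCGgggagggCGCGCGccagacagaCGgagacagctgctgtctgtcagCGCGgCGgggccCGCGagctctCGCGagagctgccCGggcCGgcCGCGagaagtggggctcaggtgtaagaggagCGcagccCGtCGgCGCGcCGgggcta
Wnt4: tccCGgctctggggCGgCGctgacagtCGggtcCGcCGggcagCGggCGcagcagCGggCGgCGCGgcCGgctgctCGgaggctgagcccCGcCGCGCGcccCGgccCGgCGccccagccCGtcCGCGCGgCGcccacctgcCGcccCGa
Kcnc1: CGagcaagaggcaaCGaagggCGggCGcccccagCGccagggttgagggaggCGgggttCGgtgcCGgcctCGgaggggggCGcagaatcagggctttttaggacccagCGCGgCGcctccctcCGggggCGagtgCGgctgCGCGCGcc
The printed stretch of Wnt4 holds 28 CpG, that of Pou4f1 23 and that of Kcnc1 19. In the authors' deposited table the promoter peaks changed by log2 1.92 (SE 0.27) at Pou4f1 (chr14:104705176-104705545), 1.86 (SE 0.28) at Wnt4 (chr4:137004003-137004744) and 1.16 (SE 0.16) at Kcnc1 (chr7:46045853-46046599). The authors' deposited table gave -0.96 (SE 0.18) at Cct8 (chr16:87292024-87293381), -0.76 (SE 0.19) at Palb2 (chr7:121731596-121732725), -0.69 (SE 0.20) at Sf3a3 (chr4:124608221-124609030) and -0.49 (SE 0.14) at Rpl37 (chr15:5145431-5146630). It gave -0.60 (SE 0.15) at H2ac15 (chr13:21937457-21938851) and -0.59 (SE 0.15) at H2bc14 (chr13:21905633-21906812). Peak coordinates are those of the table, taken as mm39 and counted from 1.

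The libraries carried accessible chromatin at the markers of HSCs. All 12 HSC markers had a promoter peak, with a median mean level of 193 normalised counts, against 1 of 6 T cell markers, 3 of 6 B cell markers and 2 of 8 neutrophil and monocyte markers. Cd3e, Cd79a, Elane and Mpo, which define those lineages, had no promoter peak in the tables. Of 6 erythroid markers 3 had a promoter peak, with a median mean level of 227. Promoter peaks were also present for all 5 megakaryocyte markers and for 6 of 7 endothelial and stromal markers, whose summed derived level was 596 in young, 725 in old AThi and 673 in old ATlo HSCs. Of the endothelial and stromal markers only the promoter of Cxcl12 was called (log2 1.27, SE 0.19, per the authors' deposited table), and the part of other cell types in the results was not tested. The table gives no value per library, so levels per group were derived from the authors' mean over 11 libraries and the log2 changes of AThi and of ATlo against young, and they carry no SD.

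Peaks of the sex chromosomes stood apart from the rest and come before the results for that reason. Xist encodes the RNA that coats and silences an X chromosome in female cells. In the authors' deposited table its promoter peak (chrX:102526738-102527030) had a log2 change of -6.79 (SE 2.32, adjusted p = 0.0376) and a peak 1 to 2 kb away had -5.38 (SE 1.56, adjusted p = 0.00927). Derived levels at the latter were 62.6 in young, 1.51 in old AThi and 2.49 in old ATlo HSCs. Firre, an RNA gene that anchors the inactive X chromosome, had 9 of its 15 peaks lower, with a median log2 change of -4.89, while its promoter was not called (log2 0.11, SE 0.18, per the authors' deposited table). The SEs show wide spread between libraries at these sites. Of the 14 peaks with an SE of at least 1 and a mean level of at least the median of all peaks, 13 lay on X or Y. The 21 peaks of chromosome Y had a median log2 change of 0.52 with a median SE of 0.98, against a median SE of 0.33 over all peaks, and 0 of them were called. Sex is not given in the sources used here and its part in the results was not tested. Without the sex chromosomes the counts were close to those over all chromosomes, with 6889 peaks higher and 2418 lower on autosomes. Autosomes hold 92045 of the 94410 peaks, so these totals could move little and do not measure the part of sex.

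**Figure D1:**
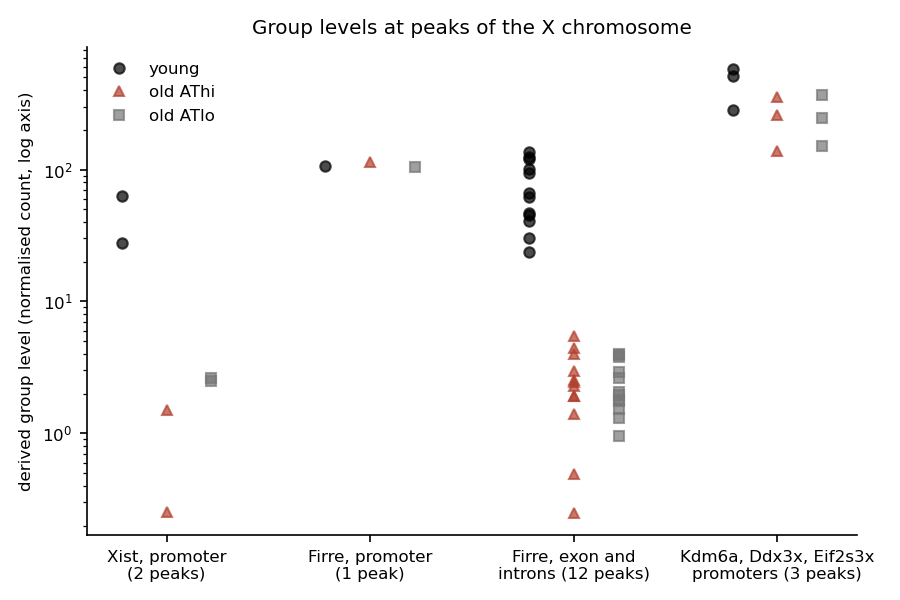
Derived group levels (normalised counts, log axis) at peaks of the X chromosome in young, old AThi and old ATlo HSCs; each point is a peak. Peaks inside Firre and at the Xist promoter were low in both old groups, while the Firre promoter was level across groups.

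Gains outnumbered losses in old AThi HSCs. Of all peaks, 7004 (7.42%) were higher and 2539 (2.69%) lower than in young HSCs when calls were taken at an adjusted p below 0.05 of the authors' Wald test, so that 10.1% of peaks were called. Higher calls were also larger. Their median log2 change was 1.21 and 65.9% changed at least 2-fold, against -0.85 and 40.4% for lower calls. The balance depended on how libraries were scaled. The 1811 strongest promoters, with a mean level of at least 356, had a median log2 change of -0.22, and setting it to 0 gave 12574 higher and 791 lower peaks. For most lists with more lower than higher promoters, medians or counts are therefore given on both scales below.

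Without matching for level, peak classes differed more in their losses than in their gains. Promoters had a median mean level of 122, against 21.2 for distal intergenic peaks. In the strongest level bin described below, promoters and other classes had close shares of lower peaks. Promoters, meaning peaks annotated within 1 kb of a start site, were higher in 1327 of 18102 cases (7.33%) and lower in 833 (4.6%). Distal intergenic peaks were higher in 7.53% and lower in 1.98% of 33664 cases. First introns were higher in 7.38% and lower in 2.01%, and later introns in 7.25% and 2.17%. Exon peaks were higher in 8.99% and 5′ UTR peaks in 9.74%, the latter in only 26 of 267 cases. Higher peaks thus made up 61.4% of promoter calls and 76.9% of calls in all other classes. With the strongest promoters set to 0 the order turned, to 96.0% and 93.6%.

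Lower promoter calls were smaller than lower distal calls, but smaller changes could be called at promoters. Promoter peaks had a median SE of 0.19, against 0.38 for distal intergenic peaks. The sizes of calls are therefore not compared at equal precision. The median of lower promoter calls was -0.56 on the log2 scale and 9.12% of them changed at least 2-fold, against a median of -1.06 and 54.3% for lower distal calls. Among calls of at least 2-fold, 88.9% of promoters and 80.9% of other peaks were higher. Higher promoter calls had a median of 0.95 and higher distal calls 1.33.

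Gains were most frequent far from genes, without a steady rise from the start site outwards. Peaks over a start site were higher in 6.93% of cases and those up to 1 kb away in 8.86%. From there the share was 6.14% at 1 to 3 kb, 5.97% at 3 to 10 kb, 7.09% at 20 to 50 kb, 8.48% at 50 to 100 kb, 10.9% at 100 to 500 kb and 17.7% beyond 500 kb, where 97 of 549 peaks were higher and 4 lower. Lower calls fell from 5.27% of peaks over a start site to 1.23% at 100 to 500 kb. Peaks of similar level were compared as well. In the weakest of 3 equal level bins the share higher went from 2.19% at 3 to 10 kb to 15.2% beyond 500 kb, and in the middle bin from 5.98% to 24.8%. The strongest bin showed no such rise over the whole range, with 16.9% higher up to 1 kb, 10.3% at 3 to 10 kb, 16.5% at 100 to 500 kb and 14.9% beyond, the latter 11 of 74 peaks. The peak assigned to Nr2f1, an orphan nuclear receptor of neural development, lies 1244 kb from its start site (chr13:79591039-79591869). Its derived level was 8.72 in young, 94.7 in old AThi and 78.3 in old ATlo HSCs, with a log2 change of 3.44 (SE 0.32, adjusted p = 1.29e-23) per the authors' deposited table.

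**Figure D2:**
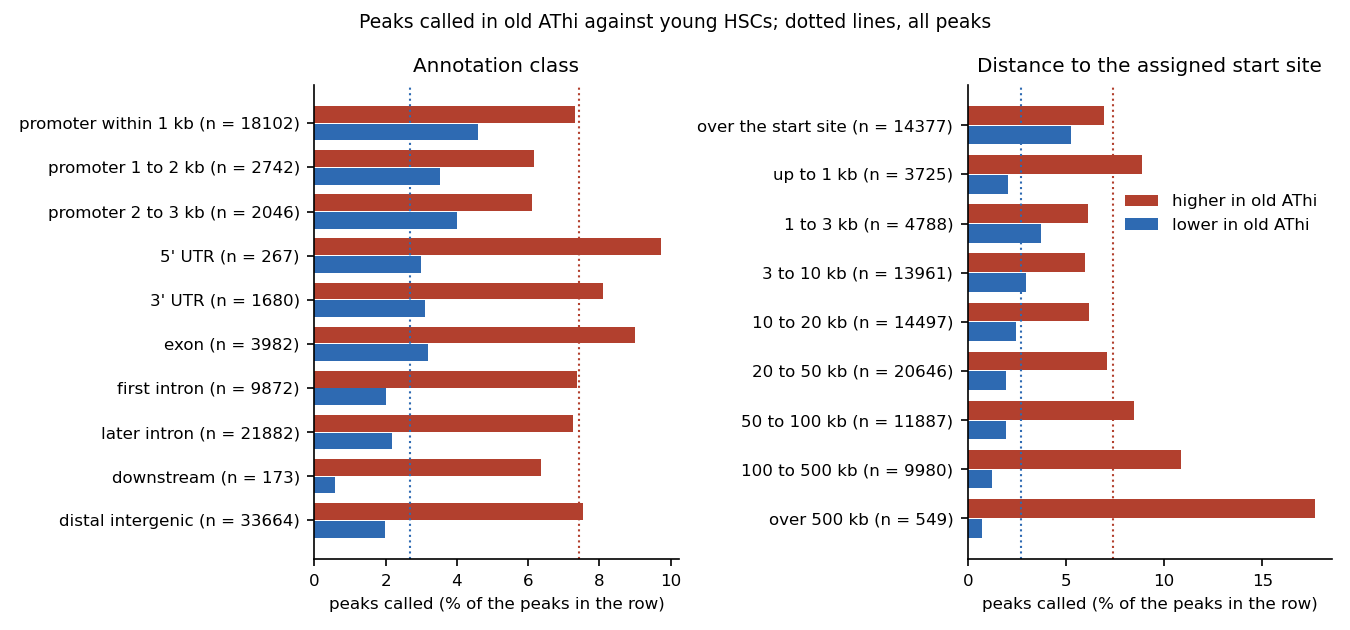
Share of peaks called higher or lower in old AThi against young HSCs, by annotation class (left) and by distance to the assigned start site (right), in percent of the peaks of each row; dotted lines give the shares over all peaks. Gains are most frequent beyond 500 kb, at 17.7%, and losses are most frequent over start sites.

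On the authors' scale, gains were most frequent at peaks of middle to high level, and losses outnumbered gains among the strongest. Over 10 equal bins of mean level, the share of promoters called higher was 15.1% in bin 8 and 3.74% in bin 10, the strongest, where 7.79% were lower. Other classes followed the same course, with 14.1% higher in bin 8 and 6.16% higher and 7.15% lower in bin 10. Weak peaks have large SEs, with a median of 0.63 in bin 1 against 0.16 in bin 10, so small changes could be called only in strong peaks. Broad peaks of at least 1500 bp were lower in 7.16% and higher in 5.73% of cases. The losses depended on the scaling, and with the strongest promoters set to 0, 102 of 18102 promoters were lower and 2454 higher.

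**Figure D3:**
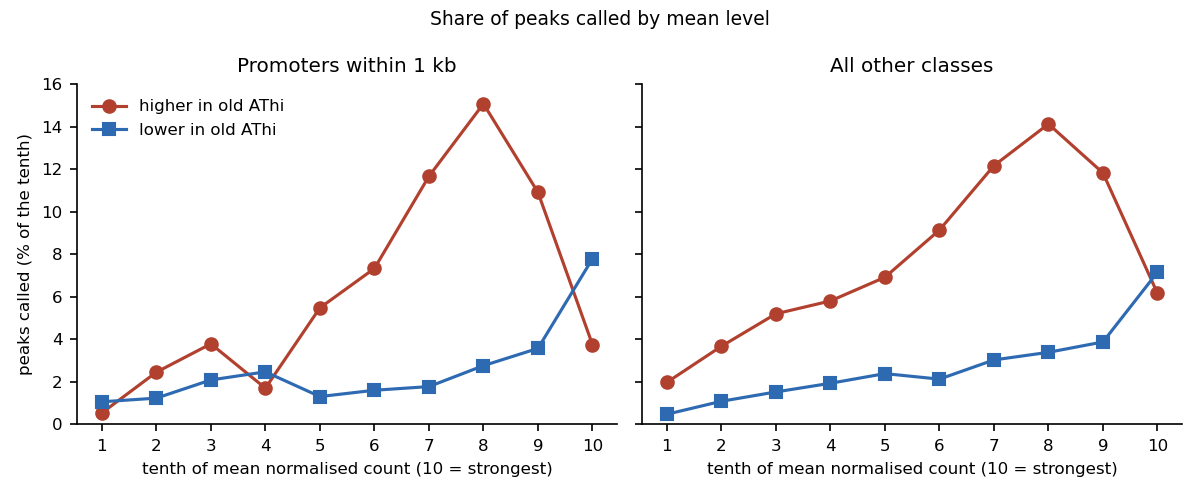
Share of peaks called higher and lower by bin of the mean normalised count (10 equal bins, 10 the strongest), for promoters within 1 kb (left) and for all other classes (right). In both panels gains are most frequent in bin 8, and in bin 10 losses outnumber gains.

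Promoters with the smallest p among those that gained belonged to genes known mainly from neurons. The authors' deposited table gave Dpp6, a subunit of potassium channels (chr5:27108873-27110051), a log2 change of 2.71 (SE 0.22, adjusted p = 4.91e-31), with derived levels of 24.3 in young, 159 in old AThi and 140 in old ATlo HSCs. In the authors' deposited table Nkain2, a partner of the sodium pump, rose by 2.08 (SE 0.17), from a derived 57.2 to 242. Pdzrn4, a protein with PDZ and RING domains, rose by 2.25 (SE 0.20) per the authors' deposited table, from 42.0 to 200. All 3 were also high in old ATlo HSCs, at 140, 196 and 169.

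Lower promoters of at least 2-fold were few, at 76 of 833 lower promoters, and examples follow. Arhgap30, a GTPase-activating protein of blood cells, fell by 1.21 (SE 0.19, adjusted p = 2.61e-08) per the authors' deposited table, from a derived 419 in young to 181 in old AThi and 203 in old ATlo HSCs. Fhit, a tumour suppressor at a fragile site, fell by 1.31 (SE 0.25) per the authors' deposited table, with derived levels of 132, 53.2 and 83.5 in the same order. Snx20, a sorting nexin of leukocytes, fell by 1.55 (SE 0.30), from 96.0 to 32.7, per the authors' deposited table.

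Outside promoters, single peaks changed by more. A peak in intron 5 of Tmem132c, assigned to the transporter gene Slc15a4, had derived levels of 6.05 in young, 107 in old AThi and 99.3 in old ATlo HSCs. In the authors' deposited table exon 5 of Tyms, which encodes thymidylate synthase, rose by 3.21 (SE 0.29), with derived levels of 16.4, 151 and 95.7 in the same order. Exon 40 of the cholesterol exporter Abca1 rose by 3.00 (SE 0.25) per the authors' deposited table, in a peak assigned to the neighbouring Nipsnap3b. The 3′ UTR peak of Kcnj11, a subunit of the ATP-sensitive potassium channel, rose by 2.70 (SE 0.29) per the authors' deposited table. Peaks in intron 1 of Ctsb, a lysosomal protease, rose by 1.80 (SE 0.18) and in intron 15 of Mfsd1, a lysosomal transporter, by 3.46 (SE 0.31) per the authors' deposited table.

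Losses among the autosomal peaks named for their class reached 8.27-fold. Exon 6 of Emc3, which helps insert membrane proteins, fell by 3.05 (SE 0.42) and exon 4 of Iscu, a scaffold for iron-sulphur clusters, by 2.95 (SE 0.38) per the authors' deposited table. Their derived levels went from 65.5 to 7.91 and from 76.6 to 9.89, with 11.9 and 7.30 in old ATlo HSCs. Intron 1 of Vasp, a regulator of actin filaments, fell by 1.02 (SE 0.19) per the authors' deposited table, as did a peak 1.14 kb from Prkcd, a protein kinase C, by 1.24 (SE 0.23). Csk, the kinase that holds Src family kinases inactive, fell by 1.46 (SE 0.28) at a peak 1.56 kb away per the authors' deposited table.

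Most genes with a change had a single direction. Of 20791 genes with an assigned peak, 4949 (23.8%) had a higher peak, 2196 (10.6%) a lower peak, 552 both and 14198 neither. Genes with a called peak had a median of 6 peaks against 3 over all genes, so genes with more peaks had more opportunity for a call. Exactly 1 higher peak was found at 3597 genes and exactly 1 lower peak at 1917. At least 3 higher peaks were found at 438 genes and at least 3 lower ones at 43.

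Ntf3, the neurotrophin that signals through TrkC, had 8 of 14 peaks higher and all 14 log2 changes above 0, between 0.07 and 2.15. Its promoter rose by 0.98 (SE 0.22) per the authors' deposited table, from a derived 38.7 to 76.2, and a peak 146 kb away inside Ano2 by 2.15 (SE 0.31). Dpp6 had 7 of 14 peaks higher, Cadm1, a cell adhesion molecule, 7 of 16 and Myo16, an unconventional myosin, 7 of 19. The widely spread genes Gse1 (8 of 32 peaks) and Nav2 (8 of 31) had median log2 changes of only 0.18 and 0.13. Naaladl2, with 6 of 7 peaks higher, lay between 1.10 and 2.25 throughout. It was named after its values were seen.

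Firre led the genes with lower peaks, followed on autosomes by Chaserr, a noncoding RNA gene next to Chd2. Chaserr had 5 of 8 peaks lower and all 8 log2 changes below 0, from -0.87 to -0.06. Its promoter had derived levels of 707 in young, 528 in old AThi and 473 in old ATlo HSCs (log2 -0.42, SE 0.14, per the authors' deposited table), and the promoter of Chd2 fell by 0.80 (SE 0.19). The 4 lower peaks each of Rnf220, Stk10 and Maml3, a coactivator of Notch, stood beside 1 higher peak each. Bcor, a corepressor on the X chromosome, had 4 lower and 1 higher of 57 peaks.

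Most other peaks of a gene were not called, whatever the state of its promoter. Where the promoter was higher (1173 genes), 11.2% of the other peaks were higher and 1.40% lower. Where it was lower (748 genes), 4.97% of the others were higher and 3.48% lower, and where it was not called (13084 genes), 6.81% and 2.46%. Among genes with other peaks, 18.5% of those with a lower promoter had another peak higher. This was below the 22.9% where the promoter was not called and the 35.8% where it was higher.

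Gene lists were described by their promoter peaks, beside a background of all promoters weighted to the same mean levels. Lists of developmental, Wnt and TGF-beta and BMP genes had more promoters higher than lower, while their medians moved less. Over all promoters of the list, the median log2 change was 0.22 for developmental transcription factors. It was 0.09 for the Wnt list and 0.04 for the TGF-beta and BMP list. With the strongest promoters set to 0, these medians were 0.44, 0.31 and 0.26. Of 160 promoters of developmental transcription factors, 43 were higher and 0 lower, or 26.9%, against 9.07% and 2.85% of promoters at the same levels. The 43 lay between 0.63 and 2.09 on the log2 scale, with median derived levels of 36.9 in young, 97.4 in old AThi and 86.2 in old ATlo HSCs. They spanned homeobox, forkhead, Sox and basic helix-loop-helix factors. Gbx1, a homeobox factor of the spinal cord, rose by 1.96 (SE 0.24) and Nkx2-4, of the hypothalamus, by 2.09 (SE 0.27) per the authors' deposited table. Among forkhead factors, Foxn4 rose by 1.84 (SE 0.22), Foxd1, a factor of kidney stroma, by 2.09 (SE 0.28) and Foxd3, of neural crest, by 1.57 (SE 0.26) per the authors' deposited table. Sox11 rose by 1.92 (SE 0.27), and the proneural factor Neurog3 by 1.66 (SE 0.27), per the authors' deposited table. Foxp1 was mixed, with a promoter 1.08 higher (SE 0.24) and a peak in a later intron 1.42 lower.

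Hox genes, which set position along the body axis and act in HSCs, had 5 of 38 promoters higher and 0 lower, against 7.82% and 2.45% at the same levels. These were Hoxd8 (log2 1.73, SE 0.26), Hoxc5 (1.51, SE 0.24), Hoxd13 (1.33, SE 0.25), Hoxa2 (1.01, SE 0.24) and Hoxc9 (0.86, SE 0.23) per the authors' deposited table. Their median derived level was 35.1 in young and 82.9 in old AThi HSCs.

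Wnt, TGF-beta and BMP genes with a higher promoter included ligands and secreted inhibitors. The Wnt list had 15 of 76 promoters higher and 0 lower, against 8.46% and 3.44% at the same levels. Among ligands, Wnt4 had derived levels of 28.9 in young, 105 in old AThi and 76.6 in old ATlo HSCs, and the authors' deposited table gave Wnt6 1.16 (SE 0.22), Wnt5b 1.05 (SE 0.19) and Wnt7a 0.97 (SE 0.20). The secreted antagonist Sfrp1 rose by 1.64 (SE 0.25) and Sfrp4 by 0.95 (SE 0.18) per the authors' deposited table. The receptor genes Fzd6, Fzd9 and Fzd3 rose by 0.64, 0.53 and 0.55, and the nuclear effectors Tcf7 and Lef1 by 1.00 (SE 0.25) and 0.75 (SE 0.20). In the TGF-beta and BMP list 14 of 70 promoters were higher and 0 lower, against 9.06% and 3.84%. Gdf1, a ligand of left-right patterning, rose by 1.33 (SE 0.20), the BMP antagonist Nog by 1.17 (SE 0.19) and the ligand Bmp4 by 1.04 (SE 0.30) per the authors' deposited table. Receptors changed less, with 0.68 (SE 0.18) at Bmpr1a and 0.54 (SE 0.18) at Acvr2b. Away from promoters, intron 1 of Tgfbr2, the type II TGF-beta receptor, fell by 0.84 (SE 0.20) per the authors' deposited table.

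Lists of excitable membranes also had more promoters higher than lower. Potassium channels had 21 of 104 promoters higher and 0 lower, against 9.21% and 2.70% at the same levels. Kcnk1, a leak channel, rose by 2.07 (SE 0.22) and Kcnj3, an inward rectifier, by 2.33 (SE 0.25) per the authors' deposited table. Derived levels at Kcnj3 were 20.6 in young, 104 in old AThi and 94.5 in old ATlo HSCs. Receptors for glutamate, GABA and acetylcholine had 15 of 58 promoters higher and 2 lower, against 8.46% and 2.38%. The metabotropic glutamate receptor genes Grm5 and Grm3 rose by 2.42 (SE 0.29) and 1.79 (SE 0.22), and the GABA receptor gene Gabra2 by 2.35 (SE 0.29), per the authors' deposited table. Grin1, the obligatory subunit of NMDA receptors, fell by 0.87 (SE 0.28) and Chrnb2 by 0.80 (SE 0.27) per the authors' deposited table.

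Guidance, adhesion and matrix lists varied. Axon guidance genes had 13 of 106 promoters higher and 0 lower, against 8.71% and 3.31% at the same levels, among them the ephrin receptor gene Epha6 (log2 2.43, SE 0.23) and the secreted cue Slit3 (2.09, SE 0.28) per the authors' deposited table. At Epha6 the derived levels were 22.0 in young, 119 in old AThi and 136 in old ATlo HSCs. Cadherins and protocadherins had 9 of 66 higher and 0 lower, against 7.23% and 2.32%. Collagens had 9 of 36 higher and 0 lower, against 8.92% and 2.49%. The 9 rose by 0.69 to 1.46, including Col12a1 (log2 1.38, SE 0.24), Col5a1 (1.00, SE 0.17) and the collagen VI genes Col6a2 (1.05, SE 0.21) and Col6a3 (1.46, SE 0.38) per the authors' deposited table. Integrins and laminins, the receptors and ligands of basement membranes, had 2 of 35 higher and 1 lower, against 8.04% and 4.05%.

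Nuclear receptors had 11 of 62 promoter peaks higher at 9 genes and 2 lower, against 6.87% and 4.44%. A peak 0.19 kb from a start site of Rxra, the shared partner of many receptors, rose by 1.97 (SE 0.22) per the authors' deposited table, from a derived 50.3 to 197. The estrogen-related receptor genes Esrrb and Esrrg rose by 1.40 (SE 0.25) and 1.35 (SE 0.24), and the retinoic acid receptor gene Rarg by 0.79 (SE 0.19) per the authors' deposited table. The circadian repressor gene Nr1d2 fell by 0.44 (SE 0.15).

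**Figure D4:**
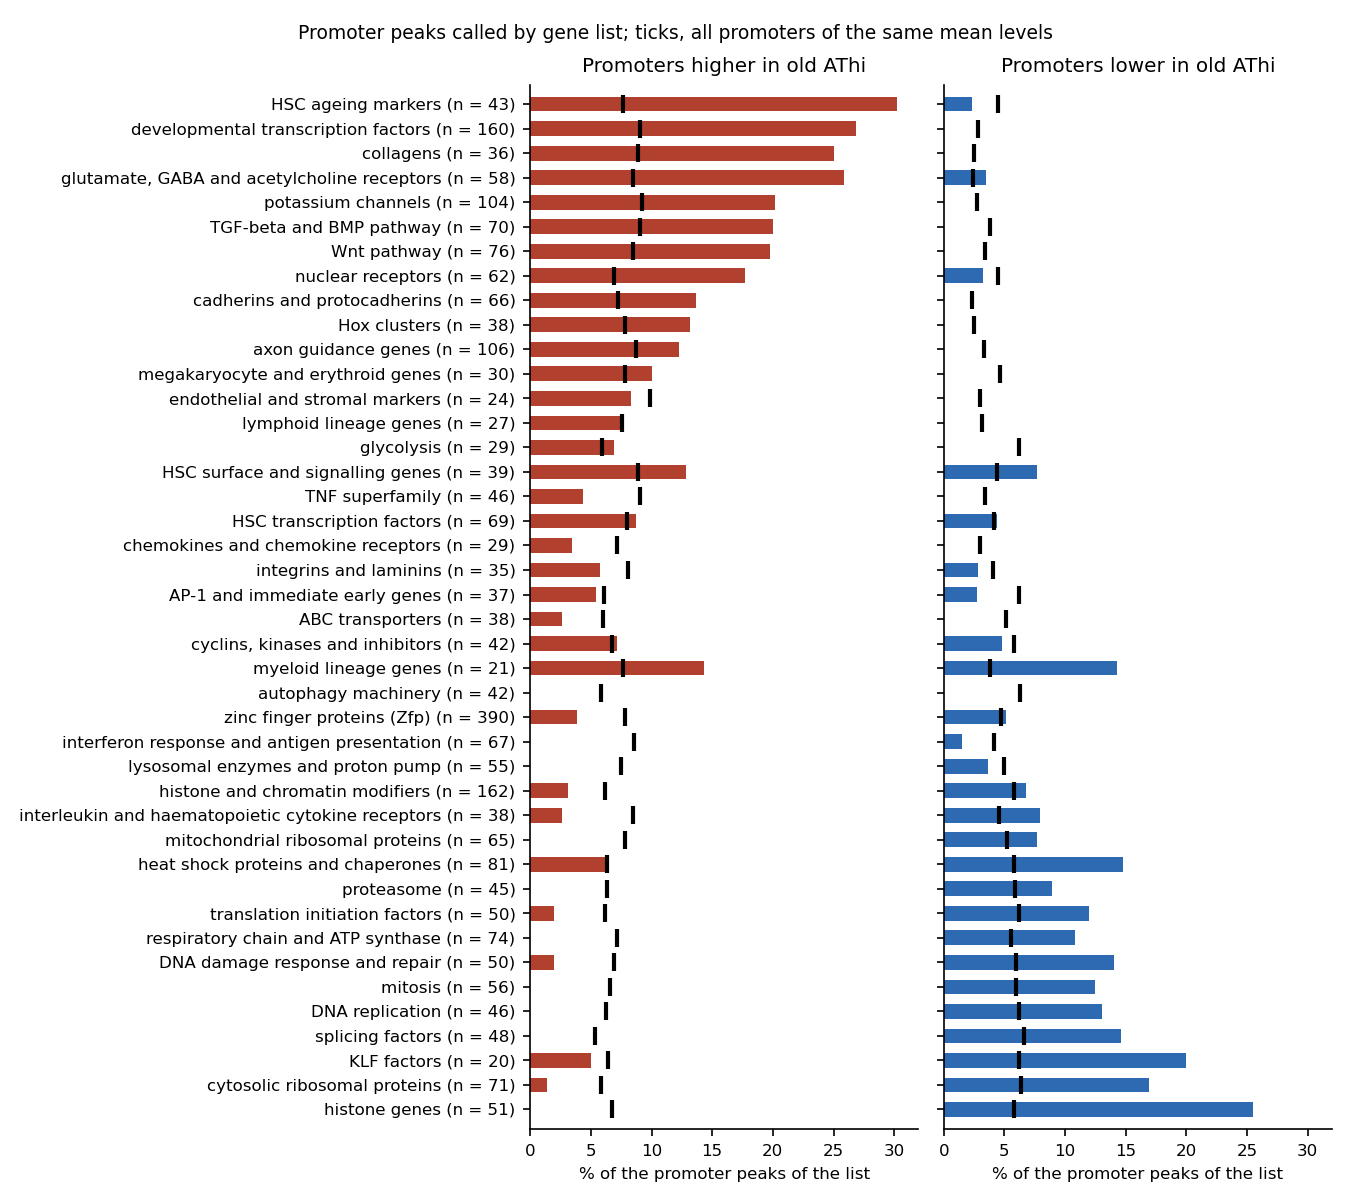
Promoter peaks called higher (left) and lower (right) in old AThi against young HSCs, in percent of the promoter peaks of each gene list (n in brackets); ticks give the share among all promoters weighted to the same mean levels. Lists of development, Wnt, TGF-beta and BMP, and excitable membranes lie to the right of their ticks for gains. Lists of synthesis, histones, replication, mitosis and repair do so for losses. Lists of cytokine receptors, chemokines, the TNF superfamily and interferon response lie to the left of their ticks for gains.

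HSC genes moved in both directions. Markers of HSC ageing, a list drawn from published signatures, had 13 of 43 promoter peaks higher at 11 genes and 1 lower, against 7.68% and 4.48%. Besides Cavin2 these included Ehd3, an endosomal membrane protein (log2 0.85, SE 0.16), Gpr183, an oxysterol receptor (1.58, SE 0.32), Neo1, the netrin receptor neogenin (0.82, SE 0.18) and Aldh1a1 (0.86, SE 0.24) per the authors' deposited table. The metallothionein genes Mt2 and Mt1 rose by 0.72 (SE 0.17) and 0.57 (SE 0.19), and the platelet genes Selp and Vwf by 0.96 (SE 0.27) and 0.78 (SE 0.27), per the authors' deposited table. Megakaryocyte and erythroid genes as a list had 3 of 30 promoters higher and 0 lower, against 7.84% and 4.65% at the same levels. Of the 5 megakaryocyte markers, 2 had their strongest promoter peak called, Gp1bb and Vwf. Myeloid lineage genes had 3 of 21 promoters higher and 3 lower, against 7.64% and 3.83%.

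Among HSC transcription factors, 6 of 69 promoters were higher and 3 lower, close to the 7.98% and 4.18% at the same levels. Gata2, a zinc finger factor required for HSC maintenance, had derived levels of 152 in young, 283 in old AThi and 224 in old ATlo HSCs (log2 0.90, SE 0.17, per the authors' deposited table). Tcf15, a factor of long-term HSCs, rose by 0.88 (SE 0.15) and Hmga2 by 1.14 (SE 0.29) per the authors' deposited table. Meis1, a homeobox factor of HSC self-renewal, fell by 0.41 (SE 0.15) per the authors' deposited table. Of surface and signalling genes, Thy1 rose by 1.74 (SE 0.28), Fgd5 by 0.79 (SE 0.16) and Itga6 by 0.57 (SE 0.15), while Cd34 fell by 0.87 (SE 0.20), Itga4 by 0.59 (SE 0.16) and Socs2, a feedback inhibitor of cytokine signals, by 0.73 (SE 0.24), per the authors' deposited table. Derived levels at Cd34 were 126 in young, 68.8 in old AThi and 81.7 in old ATlo HSCs.

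Of 234 promoters of protein synthesis and splicing genes, 30 (12.8%) were lower and 2 (0.85%) higher, and the rest did not pass the test. Among all promoters at the same levels, 6.07% were lower and 6.37% higher. Cytosolic ribosomal proteins had 12 of 71 promoters lower and 1 higher, against 6.40% and 5.86% at the same levels, with a median log2 change of -0.27 that became -0.05 with the strongest promoters set to 0, when 1 was called lower and 2 higher. Rps15a fell by 0.80 (SE 0.20), Rpl22 by 0.71 (SE 0.21) and Rps12 by 0.69 (SE 0.22), whereas Rpl32 rose by 0.52 (SE 0.18), per the authors' deposited table. At Rps15a derived levels were 200 in young, 115 in old AThi and 119 in old ATlo HSCs. Mitochondrial ribosomal proteins had 5 of 65 lower and 0 higher, against 5.20% and 7.85% (median -0.21, or 0.02 with the strongest promoters at 0). Translation initiation factors had 6 of 50 lower and 1 higher, against 6.24% and 6.16% (median -0.21, or 0.01). Splicing factors had 7 of 48 lower and 0 higher, against 6.62% and 5.34% (median -0.22, or 0.00). Sf3b1, the branch point binding subunit often mutated in clonal blood disease, fell by 0.56 (SE 0.17) and Hnrnph3 by 0.48 (SE 0.14) per the authors' deposited table.

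Energy, folding and degradation lists lay in the same range. Respiratory chain and ATP synthase genes had 8 of 74 promoters lower and 0 higher, against 5.55% and 7.13% at the same levels (median -0.29, or -0.07 with the strongest promoters at 0), led by Ndufa4 at -0.75 (SE 0.19) per the authors' deposited table. Proteasome genes had 4 of 45 lower and 0 higher, against 5.89% and 6.31%, and their median went from -0.26 to -0.03 with the strongest promoters at 0, when 1 was lower and 1 higher. The 4 included Psmd1, a subunit of the regulatory cap, at -0.82 (SE 0.21) per the authors' deposited table. Heat shock proteins and chaperones had 12 of 81 lower and 5 higher, against 5.76% and 6.35%. The constitutive chaperone gene Hspa8 fell by 0.63 (SE 0.14), from a derived 1170 to 755, and the chaperonin genes Cct8 and Cct5 by 0.96 (SE 0.18) and 0.54 (SE 0.15), per the authors' deposited table. Bag3, a partner of Hsp70 in selective autophagy, rose by 0.45 (SE 0.14) and Dnajb14 by 0.78 (SE 0.18) per the authors' deposited table. With the strongest promoters at 0, this list's median went from -0.18 to 0.04.

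Histone genes had the largest share of lower promoters among the lists with at least 20 promoter peaks. Of 51, 13 were lower and 0 higher (25.5%, against 5.80% at the same levels), and 3 were still lower with the strongest promoters at 0, when the median went from -0.33 to -0.11. Of the 13, 12 lay in the cluster on chromosome 13 and H3c15 on chromosome 3. H3c2 fell by 1.11 (SE 0.26), H4c9 by 0.80 (SE 0.21), H3c11 by 0.74 (SE 0.20) and H2ac4 by 0.85 (SE 0.26) per the authors' deposited table. Derived levels at H3c2 were 73.7 in young, 34.1 in old AThi and 61.0 in old ATlo HSCs, so that the ATlo fraction was nearer to young there. The 13 promoters had a median change of -0.60 in old AThi and -0.31 in old ATlo HSCs, but they were chosen by their calls in AThi. Over all 51 histone promoters the medians were close, at -0.33 in old AThi and -0.29 in old ATlo HSCs. The 5 Mb of chromosome 13 from 20000001 to 25000000, which hold the cluster, had 30 of 283 peaks lower, the highest share among windows of the autosomes with at least 30 peaks. Histone genes are near-identical copies, and how reads matching several copies were treated is not given in the sources used here.

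Of 194 promoters of cell cycle and repair genes, 22 (11.3%) were lower and 4 (2.06%) higher, and the rest did not pass the test. Among all promoters at the same levels, 5.99% were lower and 6.63% higher. DNA replication genes had 6 of 46 promoters lower and 0 higher, against 6.18% and 6.29% at the same levels, including the helicase subunit genes Mcm6, Mcm5, Mcm4 and Mcm2 at -0.50, -0.44, -0.42 and -0.53 (SE 0.15 to 0.19) per the authors' deposited table. Mitosis genes had 7 of 56 lower and 0 higher, against 5.96% and 6.60%, with Cenpc1 at -0.77 (SE 0.24), Nuf2 at -0.73 (SE 0.23) and the proliferation marker Mki67 at -0.49 (SE 0.17) per the authors' deposited table. DNA repair genes had 7 of 50 lower and 1 higher, against 5.995% and 6.88%, with Lig4, of end joining, at -0.79 (SE 0.22) and Nbn at -0.57 (SE 0.18). With the strongest promoters at 0, the medians of the replication, mitosis and repair lists went from -0.28, -0.30 and -0.23 to -0.05, -0.08 and -0.01, and 0, 0 and 1 promoters were still lower. Cyclins, kinases and inhibitors had 3 higher and 2 lower of 42, close to the 6.76% and 5.81% at the same levels. Cdkn2a, which encodes p16, had derived levels of 22.9 in young, 80.6 in old AThi and 64.2 in old ATlo HSCs, and Ccne2 had a promoter peak 1.13 higher (SE 0.23) and another 0.50 lower (SE 0.16) per the authors' deposited table.

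**Figure D5:**
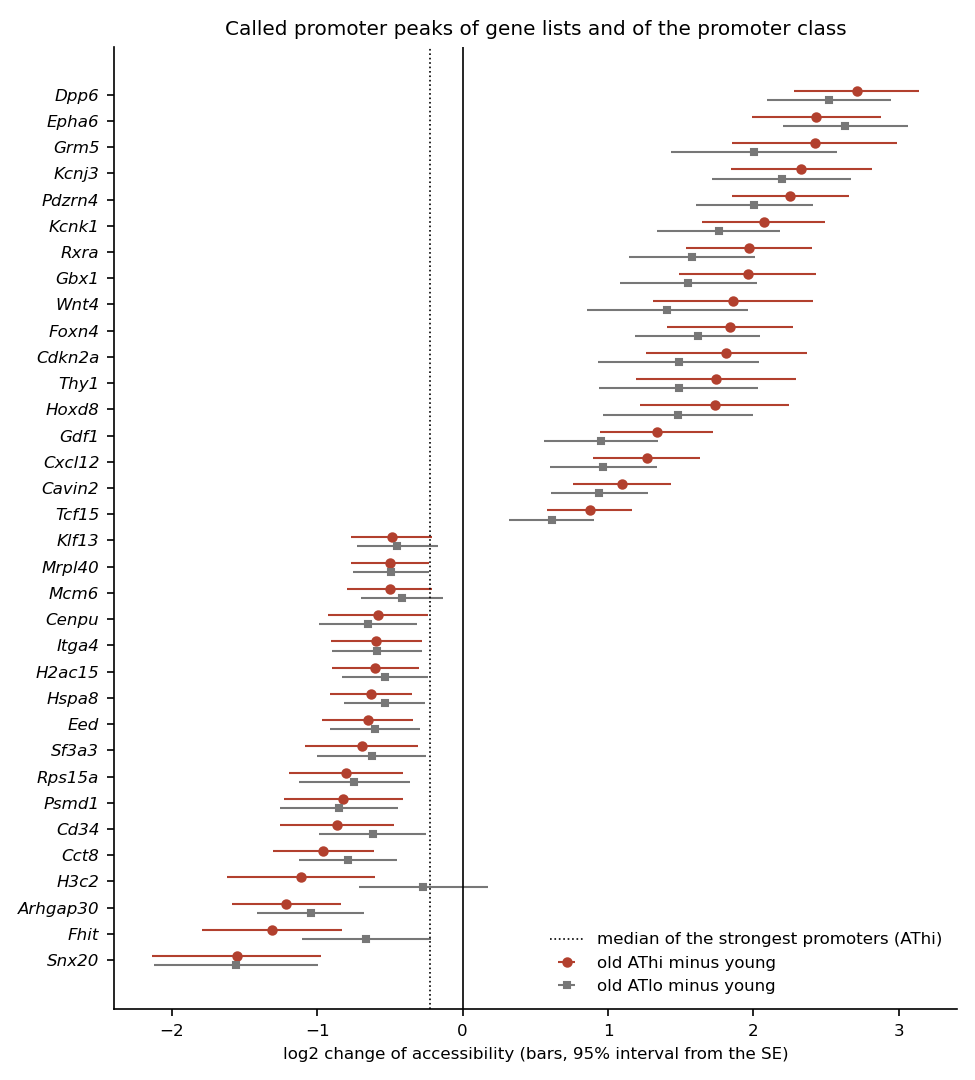
Log2 change of 34 called promoter peaks in old AThi (circles) and old ATlo HSCs (squares) against young HSCs, with 95% intervals from the SE; both comparisons use the same young libraries. The 17 higher promoters lie between 0.88 and 2.71, and the 17 lower ones between -1.55 and -0.49, all below the median of the strongest promoters (dotted line).

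Chromatin regulators and KLF factors had more lower than higher promoters. Of 162 promoters of histone and chromatin modifiers, 11 were lower and 5 higher, against 5.77% and 6.19%. The DNA methyltransferase gene Dnmt3a fell at promoter peaks by 0.51 (SE 0.15) and 0.61 (SE 0.18), Tet2 by 0.43 (SE 0.15), and the Polycomb genes Eed and Jarid2 by 0.65 (SE 0.16) and 0.51 (SE 0.16), per the authors' deposited table. The remodeller genes Arid1a and Chd7 rose by 0.86 (SE 0.23) and 0.68 (SE 0.23). With the strongest promoters at 0 the split turned to 13 higher and 1 lower. KLF factors had 4 of 20 lower and 1 higher, against 6.17% and 6.43%, and 0 lower and 1 higher with the strongest promoters at 0. The 4 included Klf13 at -0.49 (SE 0.14) and Klf10 at -0.43 (SE 0.15) per the authors' deposited table. Zinc finger genes named Zfp had 20 of 390 lower and 15 higher, against 4.75% and 7.82%, but 11 lower and 18 higher when centred on the median of all peaks and 1 lower and 34 higher with the strongest promoters at 0.

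Cytokine receptor genes had called peaks in both directions. Of 46 interleukin and haematopoietic cytokine receptor genes with a peak, 15 had a lower and 11 a higher one, against 10.6% and 23.8% of all genes. Of their peaks outside promoters 6.96% were lower and 6.52% higher, against 2.24% and 7.44% over all such peaks. Lower peaks included exon or intron peaks assigned to Il17ra (log2 -1.75, SE 0.34) and Il9r (-1.16, SE 0.25) per the authors' deposited table, and higher ones intron 1 of Il6ra (1.57, SE 0.26) and the promoter of Il13ra1 (1.37, SE 0.23). Interferon response and antigen presentation genes had 9 genes with a lower and 5 with a higher peak of 56, beside the same 10.6% and 23.8%. Of their 67 promoters 1 was lower and 0 higher, against 4.14% and 8.52% at the same levels, but 0 lower and 6 higher with the strongest promoters at 0. Irf5 fell by 1.75 (SE 0.41) at a peak 2.06 kb from its start per the authors' deposited table. A peak near Tap2, the peptide transporter of antigen presentation, rose by 1.34 (SE 0.19).

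Genes of autophagy itself showed no called promoter. Of 42 promoters of the machinery, 0 were higher and 0 lower by the authors' Wald test, against 5.86% and 6.29% at the same levels, and with the strongest promoters at 0 their median was 0.06 with 4 higher. Map1lc3b, the LC3 gene, had derived promoter levels of 298 in young, 221 in old AThi and 219 in old ATlo HSCs, and its log2 change was -0.43 (SE 0.17, adjusted p = 0.0808) per the authors' deposited table. Outside promoters 9 of 162 peaks of the list were higher (5.56%) and 2 lower (1.23%), below the 7.44% and 2.24% over all such peaks. The higher ones included intron peaks of Wdfy3, a scaffold for aggregate clearance, at 1.35 (SE 0.23) and of Optn, a selective receptor, at 0.89 (SE 0.19) per the authors' deposited table. Lysosomal genes had 2 of 55 promoters lower and 0 higher, against 4.99% and 7.45% at the same levels. These were Tfeb, their transcriptional activator, which fell by 0.44 (SE 0.15), and the channel gene Mcoln1, by 0.64 (SE 0.21), per the authors' deposited table. With the strongest promoters at 0, the list had 0 lower and 3 higher. Glycolysis genes were near the 5.94% at the same levels, with 2 of 29 promoters higher, Eno1 (1.60, SE 0.27) and the lactate transporter gene Slc16a1 (0.45, SE 0.15), and 0 lower.

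Chromosomes were alike apart from X. The share of higher peaks ran from 5.94% on chromosome 17 to 8.42% on chromosome 12 among autosomes, and that of lower peaks from 2.09% on chromosome 4 to 3.55% on chromosome 7. Chromosome X had 4.44% higher and 4.39% lower, with a median log2 change of -0.21 against -0.04 on autosomes. Among its promoter peaks, those of Ddx3x (log2 -0.69, adjusted p = 0.00612) and Eif2s3x (-1.02, adjusted p = 0.0161) were lower by the authors' Wald test. A promoter peak of Ftx also passed the test (-1.13, adjusted p = 0.0284) per the authors' deposited table. Those of Kdm6a (-0.98, adjusted p = 0.0670), Jpx (-0.84, adjusted p = 0.110) and Kdm5c (-0.84, adjusted p = 0.181) had negative values and did not pass. These genes were a chosen set and do not stand for all X promoters. Several are known to be expressed from both X chromosomes in females or to act in X inactivation. Outside Firre, its neighbour Gm35612 and Xist, 104 of 2317 peaks on X were higher and 88 lower. The part of sex in these values was not tested.

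No single peak passed the test between old AThi and old ATlo HSCs. By the authors' Wald test between the fractions 0 of 94410 peaks (0.0%) had an adjusted p under 0.05, and 1683 (1.78%) had an unadjusted p under 0.05. Among the 7004 peaks higher against young, 255 (3.64%) had an unadjusted p under 0.05 between the fractions, and among the 2539 lower ones 262 (10.3%). Against the same young libraries, 6370 peaks (6.75%) were higher and 2351 (2.49%) lower in old ATlo HSCs. The peaks called in AThi were chosen with the AThi libraries, which enter both comparisons, so these shares are no independent measure. Median log2 changes of the higher peaks were 1.21 in AThi and 1.04 in ATlo, and of the lower peaks -0.85 and -0.58. The 95% interval of the AThi minus ATlo difference ran from -0.23 to 0.60 at Dpp6, from -0.58 to 0.25 at Arhgap30 and from -0.67 to 0.68 at Snx20. At Fhit it ran from -1.18 to -0.12 and left out 0, with no adjustment for the number of peaks.

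Lower and higher promoters held the ETS motif at different shares. Of 15013 genes with a promoter peak, 9349 had a single entry in the RefSeq table of 32851 promoters, each window covering 250 bases before and 50 after the start site. The ETS motif CCGGAAGT, on either strand, was in 10.1% of the 476 lower, 2.28% of the 702 higher and 6.83% of the 8171 promoters not called, and in 3.89% of the whole table. With promoters in 4 equal bins of mean level, the shares were 10.0%, 2.17% and 6.87% in the strongest bin and 13.5%, 3.08% and 9.68% in the next. In the second weakest bin they were 8.11%, 3.24% and 8.31%, so lower and uncalled promoters were close there. In the weakest bin they were 3.92%, 0.81% and 2.45%. Some of these shares rest on few promoters, with 1 of 46 higher ones in the strongest bin. In the weakest bin they were 2 of 51 lower and 2 of 248 higher ones. The CCAAT box ATTGG was in 40.3% of lower, 29.5% of higher and 38.8% of other promoters, and in 37.4% of the table. In the strongest bin lower and uncalled promoters were close, at 48.1% and 49.8%, and higher ones had 34.8%.

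Other motifs varied less. The AP-1 motif TGANTCA was in 5.25% of lower, 6.13% of higher and 5.01% of uncalled promoters, against 7.81% in the whole table. The Sp and KLF box GGGCGGGG was in 36.1%, 32.2% and 32.6%, the E-box CACGTG in 8.19%, 7.55% and 10.3%, the cyclic AMP element TGACGTCA in 3.57%, 2.28% and 3.08%, the GATA motif AGATAA in 6.93%, 4.56% and 6.69%, and the RUNX motif TGTGGTT in 3.78%, 3.13% and 3.89%. In the whole table these 5 were in 17.6%, 7.15%, 1.79%, 11.2% and 5.27%. All were searched on both strands, and the ATTGG and GATA strings are short enough to occur often. The median number of CpG in the window was 22 in lower, 19 in higher and 19 in uncalled promoters. Higher promoters had a wider spread, with an upper quartile of 30 against 28 and 27. In the second strongest bin the medians were 25 in higher, 21 in lower and 22 in uncalled promoters. The windows of Pou4f1, Wnt4 and Kcnc1 held 57, 51 and 41 CpG, those of Cct8, Palb2, Sf3a3 and Rpl37 28, 25, 22 and 23, and those of H2ac15 and H2bc14 7 and 9. A match is a description of these letters and was not tested as a binding site.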

How the data were processed

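ATAC-seq libraries were transposed for 30 min at 37 °C over 2 isolation days and sequenced as paired 150 bp reads, per the labels' protocols. The submitters' processing notes list ChIPseeker, DESeq2, featureCounts, MACS2, BWA, cutadapt and Trim Galore without settings. Duplicate removal, transposase shift and peak merging are not given in the sources used here. Depth per library was not given either. The deposited tables hold the authors' comparisons over the same 94410 peaks, and 0 columns of values per library were used. The authors' mean normalised count per peak was used as a signal value. The authors' deposited log2 fold changes and SEs were used as they stand. The authors' Wald statistic is their score for each peak. The authors' deposited p-values with Benjamini-Hochberg adjustment gave the calls, at an adjusted p under 0.05, and 1831 peaks without an adjusted p (mean level at most 5.96) were not called.

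Subtracting each peak's ATlo log2 change from its AThi change gave the deposited change between the old fractions to within 1.02e-14, so the 3 tables come from 1 fit over 11 libraries. The count test foreseen for counts per library was not used. No library could be left out and no replicate block fitted. Intervals of 95% come from the SE under a normal distribution. Coordinates were taken as mm39, since 15.2% of peaks lay over the tables' own start sites and 273 of 20791 gene ends equalled those of the RefSeq GRCm38.p6 table. Symbols came from that table for 20791 of 20810 gene identifiers. A peak carries the nearest gene in the authors' annotation and does not measure its expression.

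Counts, shares, medians and derived levels were computed with Python 3.11.15, pandas 2.3.3 and scipy 1.17.1. The recentring and adjustment were tested on simulated data. The 43 gene lists hold 4167 genes, and their promoter background is the share of all promoters called in each of 10 bins of mean level, weighted to the list. Members and lists were chosen with earlier results of these data known, so lists got no set test. Named peaks are the 3 higher and 3 lower with the smallest p in each annotation class (at least 2-fold, mean level of at least the median, passing over predicted genes, RIKEN clones and pseudogenes), the 6 genes with most higher and most lower peaks, up to 3 called members of each list in each direction, and Map1lc3b, Xist and chromosome Y genes. Further called promoters of the lists were named after their values were seen. Thresholds, scalings, autosomes and gene assignment were varied.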

Additional observations from a re-analysis of the deposited data

How the results depend on the processing

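No paired analysis was possible because the tables used here hold comparisons and no values per library, and for the same reason no library was left out and no other size factors were tried. At an adjusted p under 0.01, 4758 peaks were higher and 864 lower, 790 genes had a lower peak, 81.4% of called promoters and 85.5% of other called peaks were higher, and promoters of synthesis, respiratory chain, proteasome, cell cycle and histone lists were lower in 21 and higher in 3 cases, against 77 and 6. With at least a 2-fold change, 4616 peaks were higher and 1025 lower, 942 genes had a lower peak, 88.9% of called promoters and 80.9% of others were higher, promoters of the same 5 kinds of list were lower in 3 and higher in 2 cases, and those of development, membrane and matrix lists were higher in 94 cases, against 147, and lower in 0, against 3 (1 at an adjusted p under 0.01). Centred on the median of all peaks, 72.7% of called promoters and 82.1% of others were higher, the median log2 change was -0.067 for promoters and 0.027 for distal intergenic peaks, and 50 promoters of those 5 kinds of list were lower. Centred on the strongest promoters, 12574 peaks were higher and 791 lower, at 7522 and 719 genes, 96.0% of called promoters and 93.6% of others were higher, the medians were 0.11 and 0.21, 7 promoters of those 5 kinds of list were lower and 19 higher, and 0 development, membrane and matrix promoters were lower and 208 higher. With a mean normalised count of at least 10 the distal median was 0.011, against -0.02. Promoter peaks alone gave 1283 genes where a peak was higher and 812 where one was lower. An unadjusted p under 0.05 gave 517 called peaks that also differed between the old fractions, against 0 at an adjusted p under 0.05 or 0.1. Of 578 named peaks, 37 turned sign and 62 lost their call when centred on the strongest promoters, and 6 and 11 when centred on the median. Gains at developmental and membrane promoters were thus called at every setting run, while losses at strong promoters depended on the scaling. Precision is set by 3 and 5 libraries, and at weak peaks small changes were not detectable.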
